A study of Oryza sativa with 4 samples.

Results

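The genes described here are 64 transcription factor genes that lay near a region enriched by OsMADS2 chromatin immunoprecipitation (ChIP) in young rice panicles. They were chosen by the text of their Oryzabase symbols, which had to contain, case-sensitive, WRKY, AP2/EREBP, bHLH, MYB, bZIP, ONAC, HOX, GRAS, TCP or Dof. That text matched 80 of the 2589 genes in the authors' table of confident regions. Of these, 16 were left out: SNB, OsWRKY53 and genes that the authors' deposited table lists under inflorescence or flower development, auxin or brassinosteroid signaling, nitrate, nitrogen starvation, ammonium ion, osmotic stress or zinc ion binding. The 64 that remained had 73 of the 1442 regions, and no region was listed for 2 of them. No measured fold entered the choice, but a region in the confident table was required, and that table holds only regions with a peak in all 3 of the authors' peak lists.

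OsMADS2 is a MADS-domain protein of the PISTILLATA type, known for its part in lodicule and stamen identity. Floral MADS proteins act largely by binding the genes of other regulators, so the transcription factors among their targets are the next step of the network. The families differ in what they are known for. AP2/EREBP and WRKY proteins are known mostly from stress, hormone and defence responses, ONAC (the rice NAC proteins) from stress and secondary walls, and GRAS proteins include the repressor of gibberellin signaling. bHLH and bZIP proteins bind DNA as dimers, and Dof proteins bind through a single zinc finger.

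All 4 libraries came from wild-type panicles of the line TP309, 0.3 to 2 cm long. Chromatin cut with micrococcal nuclease was precipitated with an affinity-purified antibody to OsMADS2 in IP5 and IP6 and with rabbit IgG in mock 5 and mock 6, and the authors' sheet of descriptions treats the numbers as 2 biological replicates. GEO labels the tissue both as panicle and as inflorescence meristem. Uniquely mapped reads ranged from 9142837 in IP5 to 16742118 in mock 6. Whole panicles hold many cell types, so a fold is an average over them, and ChIP over mock holds no expression values against which the tissue label could be checked. Each region carries a fold from 3 lists, in which IP5 was set against mock 5, IP5 against mock 6, and IP6 against mock 6. Values given without a list follow that order. A fold is the enrichment of IP over mock given by the authors' peak caller, and the value of a region is that of the highest peak overlapping it by 1 bp or more. IP5 over mock 5 and IP6 over mock 6 share no library and are called the 2 independent calls below. A list holds 1 IP library over 1 mock library, so a fold has no replicate error of its own, and no p-value was computed over genes, which are not replicates.

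The families were represented unevenly. AP2/EREBP had 15 genes, WRKY 12, bHLH 10, ONAC 10, bZIP 7, Dof 5, GRAS 3, and MYB and TCP 1 each. HOX had none, since its single match, HOX10, is listed under flower development. The symbol text has limits as a guide to family. OsDof12os (Os03g0169700) is named for the strand opposite OsDof12, the table places both on opposite strands, and it counts here as a Dof gene by its name alone.

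The families differ in the DNA sequences they are known to recognise, and some of these stood among the motifs found in the confident regions as a whole. The sequences are shown because they are of types that AP2/EREBP and bHLH proteins are known to bind, with the core in capitals: the GCC box of ERF proteins in the first and second, the dehydration-responsive core of DREB proteins in the third and the E-box palindrome of bHLH proteins in the fourth. N stands for any base.
STREME-1: cGCCGCCgccgccg
RAP2-3: gcGCCGCC
DREB2C: caCCGACa
TSAR2: ngCACGTGcn
In the authors' deposited table STREME-1 had 446 sites and an E-value of 3.1e-39. RAP2-3 and DREB2C are motifs of Arabidopsis AP2/ERF proteins, with 1504 sites (2.6e-39) and 1277 sites (3.4e-11) in the authors' deposited table. TSAR2, from Medicago, had 768 sites and 8.2e-08 in the authors' deposited table. Of its 105 motifs, 68 were named for AP2/ERF genes.

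Other families were present by fewer motifs, again with no background for the counts. TCP and MYB had a pair each. In the authors' deposited table MEME-4, most similar to the Arabidopsis TCP9 motif and holding the letters GGCCCAC, had 58 sites and an E-value of 6.7e-24, and StBRC1, a TCP motif of potato, 1175 sites (2.9e-05). MYB124 had 1536 sites (3.6e-18) and CDC5, also of the MYB class, 973 sites (1.7e-05) in the authors' deposited table. JUB1, an Arabidopsis NAC motif, had 1397 sites (9.8e-17) in the authors' deposited table. The T-rich MEME-2 was most similar to CDF5, a Dof motif of Arabidopsis. None of the 105 was named for or most similar to a WRKY or a bZIP gene. This concerns names only, and the consensus sequences were not searched for sites of bZIP proteins. It therefore does not show that such sites were absent. Such names do not tell which family the gene beside a region belongs to. Of the consensus sequences, 0 held the W-box letters TTGAC or their reverse complement. These motifs are given for the confident regions as a whole. Some site counts, such as 1536 for MYB124, are above the 1442 regions paired with genes. They cannot be read as counts of those regions. Which of the 73 regions hold these motifs was not computed, since no genome of the files' build was used.

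The folds at family genes were near or below those of the table as a whole. Their median fold was 3.13 in IP5 over mock 5 (range 2.03 to 6.40), 3.75 for IP5 with mock 6 (2.06 to 6.28) and 3.08 for IP6 over mock 6 (2.04 to 7.42), taking the highest region of each gene. Over all 2589 genes the medians were 3.34, 3.90 and 3.12. A fold of 3 or more in both independent calls was reached by 18 of 64 genes (28.1%), against a background of 37.8% over the table. Of the 16 genes left out, 9 reached it, so that with no gene left out the count was 27 of 80 (33.8%). In all 3 lists 14 genes (21.9%) reached it, against 34.8%. Singly, 36 genes reached 3 in IP5 over mock 5 and 34 did for IP6 over mock 6, against 62.7% and 56.9% of the table. When both folds had to come from the same region, 16 genes (25%) met it, against 36.8%. The fold was higher in IP6 than in IP5 for 31 of 64 genes, 48.4% beside 43.3% over the table. These differences were not tested.

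**Figure D1:**
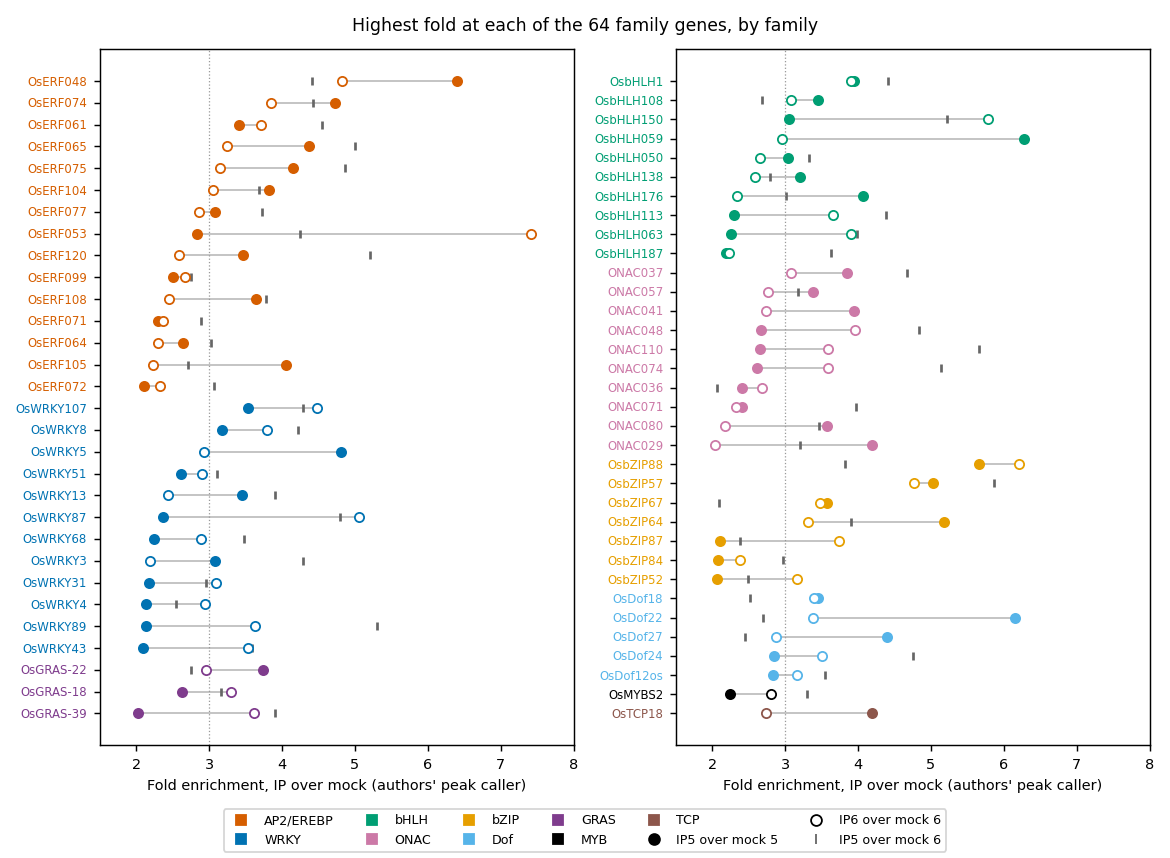
Highest fold enrichment at each of the 64 family genes (x axis, linear scale), one row per gene and colour by family, with filled circles for IP5 over mock 5, open circles for IP6 over mock 6 and ticks for IP5 over mock 6. The dotted line marks a fold of 3, and only 18 genes have both circles at or beyond it.

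The 2 independent calls ordered the family genes differently. Across the 64 genes Pearson's r between the folds was 0.16 and Spearman's rho 0.04, beside 0.27 and 0.16 over all 2589 genes. These are descriptions across genes that share the same libraries. The ratio of the larger to the smaller fold had a median of 1.32 (1.29 over the table), and 4 genes were more than 2-fold apart: OsERF053, OsbHLH059, ONAC029 and OsWRKY87. These were picked out for that difference. Of the 9 genes that reached a fold of 5 or more in at least 1 of the calls (14.1%, background 16.3%), OsbZIP88 alone did so in both within the same region.

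**Figure D2:**
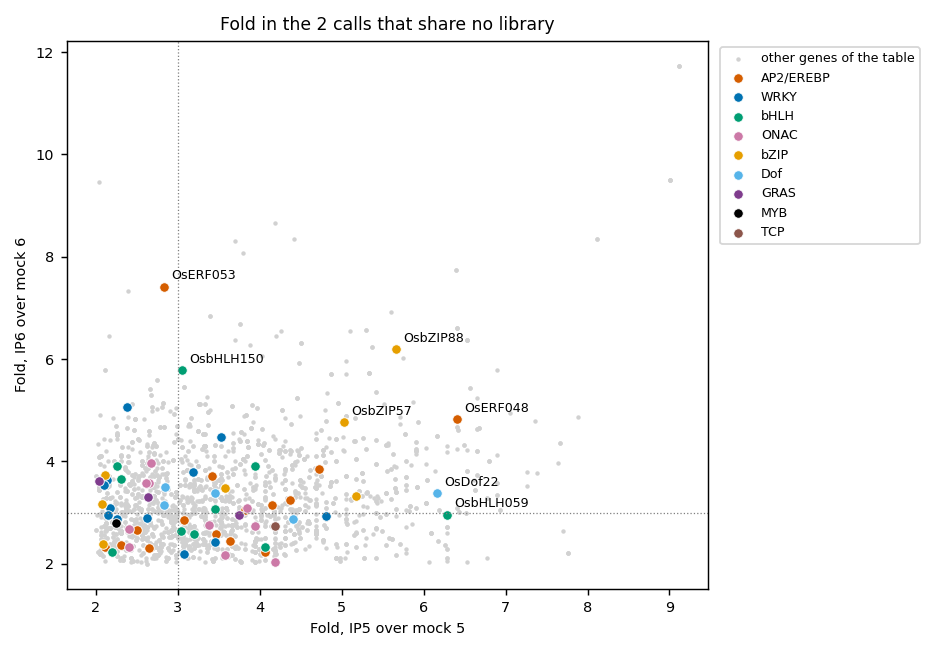
Highest fold of each gene in IP5 over mock 5 (x axis) and IP6 over mock 6 (y axis), with the family genes coloured and the other genes of the table in grey. OsERF053, OsbHLH059 and OsDof22 are high on 1 axis only, while OsERF048, OsbZIP57 and OsbZIP88 are above 4 on both, for OsbZIP57 through different regions.

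AP2/EREBP genes had the most members and 6 of the 18 genes with a fold of 3 or more in both independent calls. That was 6 of 15 genes of the family, beside 37.8% over the table. Of these 6, the highest in both calls was OsERF048 (Os08g0408500), also called OsDRAP1, a regulator known for drought tolerance. Its region (chromosome 8, 19546942 to 19548861) crossed the gene start and had folds of 6.40 in IP5 over mock 5, 4.41 for IP5 with mock 6 and 4.82 for IP6 over mock 6. All 3 values were above 4, and no other gene was listed for this region. OsERF074 (Os05g0497300) had 2 regions. One spanned the whole gene (chromosome 5, 24442671 to 24445390) with folds of 4.50, 3.33 and 3.85 in the same order. The other (24446870 to 24448107) lay 1683 bp upstream with 4.72, 4.42 and 3.05. Both of its regions were therefore at 3 or more in every list.

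OsERF061 (Os05g0361700) had a region across its start (chromosome 5, 17246977 to 17247845) with 3.41, 4.55 and 3.72. OsERF075 (Os01g0797600), also called AP37, whose overexpression is known to raise drought tolerance in rice, had a region inside the gene (chromosome 1, 33767002 to 33767933) with 4.15, 4.87 and 3.15. OsERF104 had 3.82, 3.68 and 3.05 inside the gene. The sixth, OsERF065, had 4.37, 5.00 and 3.24, but its region lay 2307 bp upstream and 1052 bp from another gene, Os07g0617100. Thus 5 of the 6 had a region on the gene itself, beside 59.4% of all family genes and 47.3% of the table. The 6 were picked by their fold.

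OsERF053 (Os01g0224100) showed the largest fold of any family gene for IP6 over mock 6, at a region 3621 bp upstream (chromosome 1, 6808100 to 6810097). That region had 2.83 in IP5 over mock 5, 4.25 for IP5 with mock 6 and 7.42 for IP6 over mock 6. A further region across its start (6813474 to 6814207) had 2.63, 2.90 and 3.06, so the distant region was the stronger one in each list. No other gene was listed for either.

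The remaining 8 AP2/EREBP genes had folds of 2.11 to 4.06 in IP5 over mock 5 and 2.22 to 2.86 for IP6 over mock 6. OsERF077 (OsAP2-39), known for its part in the balance of abscisic acid and gibberellin, had a region 600 bp upstream with 3.08, 3.72 and 2.86. OsERF071, known for drought tolerance through the root, had 2.30, 2.89 and 2.37 inside the gene. OsERF108, OsERF064 and OsERF072 had a region across the start. The region of OsERF064 was also listed for OsERF069, a gene left out for its nitrate term, at 3865 bp. OsERF120 had 3.46, 5.21 and 2.58 at 318 bp upstream. The regions of OsERF099 and OsERF105 lay downstream and crossed the start of another gene, Os01g0867900 and Os05g0437200.

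WRKY genes leaned toward IP6. The fold was higher for IP6 over mock 6 than in IP5 over mock 5 for 9 of 12, with medians of 3.02 and 2.5, beside 43.3% of genes over the table. The lean was not tested. With mock 6 as the control IP5 had a median of 4.06, so the order of IP5 and IP6 depended on the mock used. OsWRKY107 (Os01g0185900) had a region inside the gene (chromosome 1, 4567156 to 4568410) with 3.53 in IP5 over mock 5, 4.28 for IP5 with mock 6 and 4.48 for IP6 over mock 6. OsWRKY8 had 3.18, 4.22 and 3.79, 3362 bp upstream (chromosome 5, 29016535 to 29017038), and Os05g0583075 was closer to its region. These were the only WRKY genes at 3 or more in both independent calls, 2 of 12 beside 37.8% over the table.

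OsWRKY87 (Os07g0583700), related to barley SUSIBA2, a regulator of sugar response and starch synthesis, had a region across its start (chromosome 7, 23658802 to 23660106). Its folds were 2.37 in IP5 over mock 5, 4.79 for IP5 with mock 6 and 5.06 for IP6 over mock 6. IP5 was thus near IP6 over the shared mock 6 and far below it over mock 5. The peaks of the independent calls did not overlap within the region, so their folds stand for different stretches of it. OsWRKY5, known to promote leaf senescence, had the family's only region across a gene end (chromosome 5, 2179459 to 2179835), with 4.80, 4.80 and 2.92. OsWRKY89, known for leaf wax and blast resistance, had 2.13, 5.30 and 3.63 across its start. OsWRKY68 had 2.25, 3.47 and 2.88 across its start.

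OsWRKY13, a defence regulator, had 3.45, 3.90 and 2.43 inside the gene. OsWRKY51, known as a repressor of gibberellin responses in the aleurone, had 2.62, 3.11 and 2.90 inside the gene. The remaining 4 lay apart from their regions. OsWRKY31, a blast resistance regulator, had a region 3804 bp upstream (2.17, 2.96 and 3.09) with no other gene listed. OsWRKY3 and OsWRKY4, the closest pair of family genes with 66.2 kb between them, had regions 741 bp and 2668 bp upstream. Those regions overlapped Os03g0758050 and eIF-5A-2, a translation factor gene. The region of OsWRKY43 lay 3184 bp downstream, inside OsWSL6.

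Among bHLH genes 3 of 10 reached 3 or more in both independent calls, beside 37.8% over the table. Each of the 3 had a region over another gene. OsbHLH1 (Os07g0628500), also called OsbHLH062 and known for salt response in jasmonate signaling, had folds of 3.94, 4.40 and 3.91, alike in the 3 lists. Its region (chromosome 7, 26039111 to 26039346) lay 352 bp downstream and crossed the start of RPS9, a ribosomal protein gene. OsbHLH108 (Os06g0164400) carries the name SPT, after Arabidopsis SPATULA, a regulator of carpel development. It had 3.45, 2.68 and 3.08 at a region 1843 bp downstream (chromosome 6, 3278732 to 3279158) and inside Os06g0164500.

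OsbHLH150 (Os12g0160400) reached the threshold only through 2 different regions. The region across its start (chromosome 12, 3023782 to 3024290) had 3.05 in IP5 over mock 5, 4.06 for IP5 with mock 6 and 2.56 for IP6 over mock 6. The region 467 bp downstream (3029858 to 3030887) had 2.10, 5.22 and 5.78 and lay inside OsBLH1, a homeobox gene. The high IP6 value therefore belongs to DNA within the neighbouring gene.

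The iron-response genes of the bHLH family lay on opposite sides of the independent calls. OsbHLH059 (OsPRI3, Os02g0116600), a positive regulator of the iron deficiency response, had a region inside the gene (chromosome 2, 878027 to 878478) with 6.28 in both IP5 lists and 2.96 for IP6 over mock 6. OsbHLH063 (OsIRO3), a negative regulator of that response, had 2.26, 3.98 and 3.90 across its start. Over the shared mock 6 the IP5 fold was above the IP6 fold at both genes, so the contrast depended on the mock used. In the authors' deposited table OsbHLH063 is listed under cellular response to iron ion starvation together with ONAC036. OsbHLH138, known to activate a fertility gene sensitive to temperature, had 3.20, 2.80 and 2.59 across its start. OsbHLH050, OsbHLH113, OsbHLH176 and OsbHLH187 had 2.19 to 4.06 in IP5 over mock 5 and 2.23 to 3.66 for IP6 over mock 6. The region of OsbHLH113 crossed the start of OsEXPB4, and that of OsbHLH050 covered the whole of Os04g0590650.

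NAC genes (ONAC) had no region at 3 or more in both independent calls, while 36.8% of genes over the table had such a region. ONAC037 (Os08g0157900), also called OsNTL2, had 3 regions, the most of any family gene. The region across its start (chromosome 8, 3392665 to 3393677) had 3.85, 4.67 and 2.69. The region inside the gene (3392040 to 3392525) had 2.02, 3.82 and 3.08, and the one 2920 bp upstream (3396270 to 3396780) had 3.02, 2.44 and 2.46. No other gene was listed for any of the 3, and a fold of 3 in both calls came only from different regions.

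ONAC048 (Os01g0884300), also called SNAC2 or OsNAC6 and known for tolerance of cold, salt and drought, had 2 regions. That across its start (chromosome 1, 38400800 to 38401851) had 2.63, 4.70 and 3.96. That inside the gene (38399174 to 38400602) had 2.67, 4.84 and 2.41. ONAC074 (OsNTL3) had 2.61, 5.14 and 3.58 across its start. In these 3 regions the IP5 fold was 4.70 to 5.14 over mock 6 and 2.61 to 2.67 over mock 5. ONAC036 (IDEF2), which is known to bind an iron deficiency element, had 2.41, 2.06 and 2.68 across its start.

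ONAC029 (OsSWN2), a secondary wall regulator, had 4.19, 3.20 and 2.04 inside the gene, with a q of 0.0117 for IP6 over mock 6. ONAC057 had 3.38, 3.17 and 2.76 at 1071 bp upstream, and ONAC071 (OsNAC5), another stress regulator, 2.41, 3.97 and 2.33 at 875 bp upstream. ONAC041 had 3.94, 3.94 and 2.73, but its region lay 3083 bp upstream and inside OsDHHC4. ONAC080 and ONAC110 had regions 2311 bp and 2960 bp downstream, with 3.57 and 2.65 in IP5 over mock 5 and 2.18 and 3.58 for IP6 over mock 6. The region of ONAC080 crossed the start of OsV4, and that of ONAC110 lay closer to another gene, H4, at 535 bp.

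bZIP genes had 4 of 7 members at 3 or more in both independent calls, beside 37.8% over the table. With so few genes the difference was not tested. OsbZIP88 (Os12g0601800) had 2 regions upstream. The farther one (chromosome 12, 25330655 to 25331048, 1725 bp upstream) had 5.66 in IP5 over mock 5, 3.69 for IP5 with mock 6 and 6.20 for IP6 over mock 6. The nearer one (25331935 to 25332149, 624 bp upstream) had 2.54, 3.82 and 4.44. The farther region was closer to Os12g0601500, at 1585 bp, and OsIAA3 was listed for it as well.

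OsbZIP57 (Os07g0124300) had a region across its start (chromosome 7, 1267449 to 1268128) with 3.84, 5.87 and 4.77. A further region 158 bp downstream (1268935 to 1269970) had 5.03, 2.77 and 2.77 and covered the whole of Os07g0124400. OsbZIP64 and OsbZIP67 had 5.17, 3.91 and 3.32 and 3.57, 2.10 and 3.48, at regions 3525 bp and 3034 bp downstream. Both of those regions overlapped other genes, OsWD40-156 and Os08g0487000. OsbZIP57 was therefore the only bZIP gene with a region on the gene itself at 3 or more in both calls.

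The remaining bZIP genes had IP5 over mock 5 folds of 2.07 to 2.11. OsbZIP52, known as a negative regulator of cold and drought response, had 2.07, 2.49 and 3.17 across its start. OsbZIP87 (OsOBF1) had 2.11, 2.39 and 3.74 inside the gene, and OsbZIP84 2.08, 2.96 and 2.39 at 156 bp upstream.

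Of the 5 Dof genes, 4 had a region on the gene itself, beside 59.4% of all family genes and 47.3% of the table. Those 4 had folds of 2.84 to 6.16 in IP5 over mock 5 and 2.87 to 3.50 for IP6 over mock 6. OsDof22 (Os07g0508900) lay wholly within its region (chromosome 7, 19363161 to 19365042), which had 6.16, 2.69 and 3.38. OsDof18 (Os04g0567800), known for a part in ammonium uptake, had 3.45, 2.52 and 3.39 across its start (chromosome 4, 28535655 to 28536859) and 3.23, 2.52 and 2.27 at 720 bp upstream. OsDof27 had 4.40, 2.45 and 2.87 inside the gene (chromosome 10, 18873681 to 18874882). OsDof24, known for delaying leaf senescence, had 2.84, 4.76 and 3.50 across its start (chromosome 8, 24231563 to 24233048). That region was also listed for OsbHLH031, a gene left out for its brassinosteroid term, at 2897 bp. The region listed for OsDof12os, 626 bp downstream of it (chromosome 3, 3738850 to 3739216; 2.83, 3.54 and 3.16), crossed the start of OsDof12, a flowering time gene listed under zinc ion binding.

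The 3 GRAS genes had 2.03 to 3.74 in IP5 over mock 5 and 2.95 to 3.62 for IP6 over mock 6. None of them reached 3 or more in both independent calls, beside 37.8% over the table. OsGRAS-18 (Os03g0707600) is SLR1, the DELLA protein that represses gibberellin responses. Its region crossed the gene start (chromosome 3, 28512535 to 28513218), and no other gene was listed. The folds were 2.63 in IP5 over mock 5, 3.16 for IP5 with mock 6 and 3.31 for IP6 over mock 6. OsGRAS-22 had 3.74, 2.75 and 2.95 across its start (chromosome 4, 29275959 to 29277468). OsGRAS-39 had 2.03, 3.91 and 3.62 at 1230 bp upstream (chromosome 10, 11608349 to 11609067), while Os10g0369750 was closer to that region.

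MYB and TCP had a single gene each. OsMYBS2 (Os10g0562100), known to bind the promoters of amylase genes, had 2.25, 3.30 and 2.81 inside the gene (chromosome 10, 22175616 to 22176022). OsTCP18 (Os05g0513100), of a family known for control of cell division, had 4.19, 4.19 and 2.73 inside the gene (chromosome 5, 25437284 to 25438285). Both genes were the only ones listed for their region.

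Regions crossed the start in 25 of 64 family genes, 39.1% (Wilson 95% interval 28.1 to 51.3), against a background of 26.7% over the table (690 of 2589). A start counts as crossed also where the region covers the whole gene. Each gene was counted once, in the first place that any of its regions met, in the order given here. OsERF053, for example, counts at its start although its higher folds lay upstream. In 13 genes (20.3%) the region lay in the gene or across its end, in 9 (14.1%) up to 2 kb upstream, in 5 (7.81%) at 2 to 4 kb upstream and in 12 (18.8%) downstream. Over the table these were 20.7%, 13.8%, 11.0% and 27.8%. By family, starts were crossed in 7 of 15 AP2/EREBP, 3 of 12 WRKY, 4 of 10 bHLH, 4 of 10 ONAC, 2 of 7 bZIP, 3 of 5 Dof and 2 of 3 GRAS genes. Gene ends were crossed in 3 of the 73 pairs of region and gene, and 2 of those regions covered the whole gene.

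**Figure D3:**
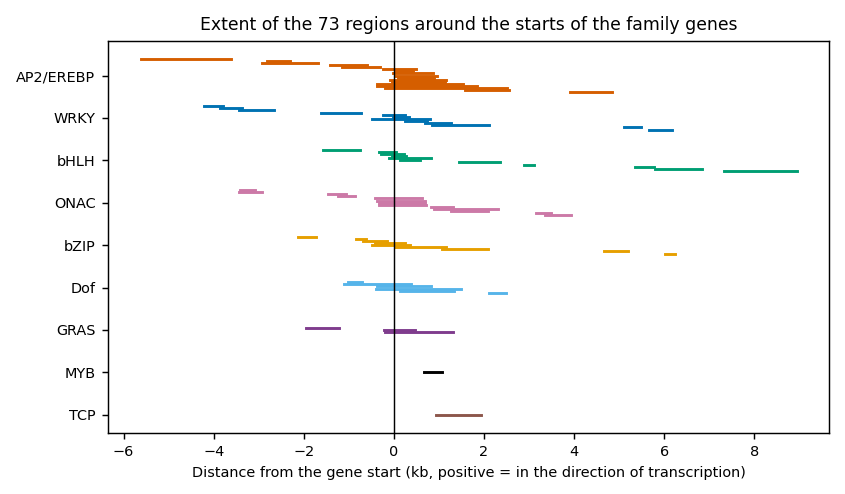
Extent of the 73 regions (horizontal lines) relative to the start of the family gene they are listed for, in kb along the direction of transcription, by family. Of these regions, 25 cross the start line at 0. Midpoints lay within 500 bp of the start for 37.5% of family genes, against 35.8% over the table.

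The start share had no test, and it depended on how a start was counted. When the midpoint of the region had to lie within 500 bp of the start, 24 of 64 family genes (37.5%) met it, against 35.8% over the table. Other features moved with the share. Family genes without exception have a symbol in the table, and among other genes with a symbol the share was 30.4% (248 of 815), against 24.4% among genes without one. It was 36.5% (23 of 63) among genes of other regulator families, whose symbols contain MADS, ARF, SPL, Hsf, HSF, NF-Y, HAP, GATA, YAB, GRF, C3H, IAA, PHD, SET or TIFY. The Wilson intervals of the family genes and of these regulators overlap (25.7 to 48.9). The regions of family genes were wider, with a median of 803 bp against 553 bp over all regions, and those across a start had a median of 1040 bp against 700 bp over the table. The genes were shorter, with a median length of 1990.5 bp against 2655 bp. Among genes above 2655 bp the start share was 53.8% (7 of 13) against 28.7%, and among the others 35.3% (18 of 51) against 24.6%. The part of width in the start share was not tested.

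**Figure D4:**
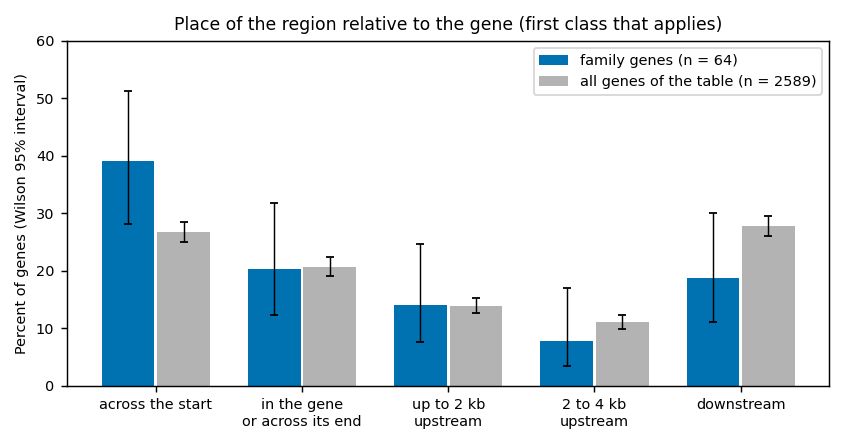
Percent of genes (y axis, from 0) whose region falls in each place relative to the gene, for the 64 family genes and all 2589 genes of the table, with Wilson 95% intervals that cover counting error only. A gene with several regions is counted once, in the first of the places that any of them meets. The family genes stand at 39.1% across the start and 18.8% downstream, against 26.7% and 27.8%.

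Many regions could be credited to another gene as well. Of the 73 regions, 30 had only the family gene listed and 43 had further genes. The region overlapped the family gene in 40, and in 52 the family gene was the nearest or shared that place. In 16 of the 33 regions that lay apart from the family gene, the region overlapped some other gene instead. For 14 family genes this held for every region they had, and 4 of those 14 (OsbHLH1, OsbHLH108, OsbZIP64 and OsbZIP67) were among the 18 with folds of 3 or more. Which of the neighbouring genes OsMADS2 acts on was not measured.

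Peaks of the independent calls overlapped each other directly in 68 of the 73 regions (93.2%), beside 93.0% of all regions. In the other 5 the calls were joined only through an IP5 over mock 6 peak: those of OsERF099, OsWRKY87, OsbZIP52 and ONAC110 and the region inside ONAC048. The deposited q was at most 0.00288 in IP5 over mock 5 and 0.0021 for IP5 with mock 6. In IP6 over mock 6 it was above 0.01 in 3 regions, at OsbHLH187 (0.0191), OsWRKY3 (0.0129) and ONAC029 (0.0117).

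More than 1 region lay near 8 of 64 family genes (12.5%, background 9.81%): OsERF053, OsERF074, OsbHLH150, ONAC037, ONAC048, OsbZIP57, OsbZIP88 and OsDof18. By chromosome the share of listed genes that were family genes ran from 0.352% on chromosome 2 (1 of 284) to 5.03% on chromosome 8 (8 of 159).

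The gene ontology (GO) terms of the family genes were mostly those that name transcription factors. Of the 73 genes under transcription factor activity in the authors' deposited table, 37 were family genes, and of the 108 under DNA binding, 31. These were 57.8% and 48.4% of the family genes, beside 2.82% and 4.17% of the 2589. The choice by family symbols largely fixed this in advance, so it is no finding about the regions. Response to salt stress held 195 genes in the authors' deposited table, 7.53% of the 2589, and 12 family genes (18.8%): ONAC037, ONAC048, ONAC071, ONAC074, OsERF048, OsERF075, OsERF099, OsERF104, OsGRAS-18, OsWRKY3, OsWRKY8 and OsbHLH1. Response to gravity held 11 genes (0.425%) in the authors' deposited table, among them OsERF061, OsTCP18 and OsWRKY8 (4.69% of family genes). Response to wounding held 34 (1.31%) in the authors' deposited table, among them ONAC048, OsERF071 and OsbHLH059 (4.69%). These shares were not tested. Family genes all have a symbol, while 1710 of the 2589 genes have none. The shares were not compared among genes with a symbol only. Family genes were in 15 of the 77 terms of the authors' deposited table, and 8 were in none. Genes of 10 terms had been left out by the choice, so no absence from those terms can be read from these counts.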

How the data were processed

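Per the submitters' processing notes fastp, Bowtie2, SAMtools, deepTools and MACS2 were used, while their versions and settings and the genome build are not given in the sources used. The authors deposited read counts per library. For each peak they deposited a fold (ratio of IP to mock by the peak caller) and −log10 values of p and q, per the file headers, for 3 lists of 1 IP over 1 mock library, not pooled. Regions with a peak in every list were joined and paired with genes, per the file headers, the farthest 3999 bp away. Coordinates are as deposited. Motifs came from MEME-ChIP 5.4.1 with JASPAR 2022.

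Regions were given the highest fold of any overlapping peak, and genes the highest of their regions. Shares have Wilson 95% intervals. The genes and lists were chosen with earlier results of these data known. The rule for genes described in detail took, per family, the 3 of highest smaller fold over the independent calls, whole families of up to 4, the highest of each call and genes with 2 or more regions. It named 29, and the rest were added after their values were seen. Symbols in the RefSeq table (another assembly) matched 10 of 64 genes and were not used. Python 3.11.15, pandas 2.3.3, scipy 1.17.1, numpy 2.4.6 and matplotlib 3.10.9 were used.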

Additional observations from a re-analysis of the deposited data

How the results depend on the processing

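The choice of control moved the median fold of the family genes most: for IP5 it was 3.75 with mock 6 in place of mock 5. With only peaks of the authors' sheet of shared peaks it was 3.38 over the 59 genes that had one, with only regions on the gene or up to 2 kb upstream 3.08 over 47 genes, and with no gene left out 3.17. For IP6 over mock 6 the latter settings gave 2.95 and 3.15. These were compared with 0.035, the SD of the medians of the independent calls. As the SD of only 2 values, it does not measure the error of a median. The number of genes with a fold of 3 or more in both calls was 18. It was 11 of 47 (23.4%, against 36.6% of all genes in that setting) with only regions on the gene or up to 2 kb upstream, 38 (59.4% against 68.1%) at a fold of 2.5 and 3 (4.69% against 8.65%) at a fold of 4. Leaving out replicate 5 or 6, so that a single call had to reach 3, gave 34 to 36. It was 27 (42.2% against 50.0%) over mock 6 for IP5 and 27 of 80 (33.8% against 37.8%) with no gene left out. A lower or higher threshold, fewer regions or a single call change the count by construction, and for the medians the cause was not tested. The share with a region across the start was 37.5% by midpoint (35.8% of all genes), 37.5% with no gene left out and 48.1% with each region counted by its nearest gene (42.5%). Among the 46 genes nearest to a region, a setting chosen after seeing the data, it was 54.3% (45.7%). That setting keeps every gene whose start is crossed and drops only others, so the share had to rise. IP6 was not called over mock 5 in the lists used, so that setting gave no value for it. No paired analysis was possible because the files used give folds already formed as IP over mock, with no value of a single library at a region. The pairs of equal number enter as the independent calls. IP5, with 9142837 uniquely mapped reads, was the shallowest library.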

Other observations

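A case-insensitive search of the symbols found 4 more genes, each of them a homeobox gene of the HD-ZIP class, whose symbols are written Oshox. Oshox9, a relative of the leaf polarity genes of Arabidopsis, had 3.50 in IP5 over mock 5, 5.04 for IP5 with mock 6 and 2.85 for IP6 over mock 6 across its start (chromosome 10, 18085425 to 18086573). Oshox33 had 2.04, 4.79 and 2.97 inside the gene. Oshox2 had 2.06, 2.83 and 2.62 across its start. Oshox4 had 2 regions on the gene, with 2.09 and 2.18 in IP5 over mock 5 and 2.22 and 2.40 for IP6 over mock 6. None reached 3 in both independent calls.

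Some folds recurred exactly. In 10 of the 73 regions the IP5 over mock 5 fold equalled that of another family gene's region in every deposited digit, for example 4.19 at ONAC029 and OsTCP18. In IP6 over mock 6 this held for 2 regions. In 4 regions, those of ONAC041, OsTCP18, OsWRKY5 and OsbHLH059, the IP5 fold was the same over mock 5 and over mock 6.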
